A study of Arabidopsis thaliana with 18 samples.

Results

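The response of ahl10-1 seedlings to low water potential was described from 6 of the 18 poly(A) RNA-seq libraries of the series. These were the 3 ahl10-1 libraries kept at the control water potential of -0.25 MPa and the 3 ahl10-1 libraries held at -0.7 MPa for 96 h, and all genes entered the comparison. The line ahl10-1 is 1 T-DNA insertion allele (Salk_073165) of AHL10, which encodes an AT-hook DNA-binding protein, so its values are those of a single allele. Whole Arabidopsis thaliana seedlings grew on vertical agar plates without sugar, in continuous light, and were moved at 7 days of age either to fresh control medium or to the same medium infused with PEG-8000, a polymer that holds water back from the roots without entering the cells. The wild type (Col-0) and rrp6l1-2, a mutant of the exosome-related gene RRP6L1, received the same treatments, with 3 libraries each per treatment, and the design text names 3 independent biological experiments per group. Of the 33602 loci in the tables, 22795 had enough reads to be tested.

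Plants meet a falling water potential by accumulating abscisic acid (ABA). The hormone binds receptors of the PYR/PYL family, the occupied receptors block clade A protein phosphatases 2C (PP2Cs), and SnRK2 kinases released from these phosphatases activate transcription factors of the ABF group at ABRE promoter elements, whose core is ACGTG. Seedlings at low water potential also accumulate proline, change the transport and storage of sugars, and restrict the growth of leaves more than that of roots. HAI1 and HAI2, which belong to the clade A PP2Cs, are known as negative regulators of such acclimation in Arabidopsis.

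The promoter windows of 5 genes are shown first. Each of the 3 motifs counted was found before more of the genes with large rises than of all genes. HAI2, RD29B and UF3GT were picked by hand and are not typical. Among genes that rose at least 2-fold, 40.1% held an ABRE core and 19.8% held 2 or more. Each window holds the 250 bases before the annotated gene start, written 5′ to 3′ on the gene's strand, from the RefSeq annotation of TAIR10.1. Capitals mark the ABRE core ACGTG and the core of the dehydration-responsive element, CCGAC, on either strand. HAI2 lies on chromosome 1, minus strand, at chr1:2282829-2283078, and its window holds 4 ABRE cores. The RD29B window, on the plus strand at chr5:21236771-21237020, holds 4 ABRE cores and 1 DRE core. The UF3GT window, on the minus strand at chr5:21938397-21938646, holds 4 ABRE cores within 2 copies of the G-box CACGTG, which contains the ABRE core on both strands. The windows of LTP4 (minus strand, chr5:23925958-23926207) and PYL6 (minus strand, chr2:16846195-16846444) are printed because they belong to the gene with the largest rise and to the ABA receptor with the largest fall, and neither holds these letters.
HAI2: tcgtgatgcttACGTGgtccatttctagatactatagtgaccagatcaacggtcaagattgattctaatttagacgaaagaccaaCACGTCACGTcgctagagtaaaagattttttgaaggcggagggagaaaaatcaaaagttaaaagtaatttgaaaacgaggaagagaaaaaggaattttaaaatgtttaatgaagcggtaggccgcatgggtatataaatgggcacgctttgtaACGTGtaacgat
RD29B: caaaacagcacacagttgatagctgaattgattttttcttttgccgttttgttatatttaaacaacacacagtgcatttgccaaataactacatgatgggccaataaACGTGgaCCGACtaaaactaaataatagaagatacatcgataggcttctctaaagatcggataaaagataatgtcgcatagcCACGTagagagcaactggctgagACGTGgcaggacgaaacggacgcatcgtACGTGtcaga
UF3GT: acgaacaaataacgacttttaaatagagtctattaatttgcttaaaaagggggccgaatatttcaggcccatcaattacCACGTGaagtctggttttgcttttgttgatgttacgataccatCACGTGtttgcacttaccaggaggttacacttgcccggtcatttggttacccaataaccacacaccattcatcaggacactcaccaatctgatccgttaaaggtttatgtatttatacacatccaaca
LTP4: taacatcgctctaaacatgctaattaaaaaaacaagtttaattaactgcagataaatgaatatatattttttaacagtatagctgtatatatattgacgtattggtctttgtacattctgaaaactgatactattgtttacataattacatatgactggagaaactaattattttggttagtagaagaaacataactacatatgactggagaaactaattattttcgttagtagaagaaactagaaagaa
PYL6: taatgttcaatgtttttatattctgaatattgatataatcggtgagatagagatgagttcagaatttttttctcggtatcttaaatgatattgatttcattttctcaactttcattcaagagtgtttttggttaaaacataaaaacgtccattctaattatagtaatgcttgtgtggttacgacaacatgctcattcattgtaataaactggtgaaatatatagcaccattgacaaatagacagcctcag

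AHL10 itself stood at a lower mean level in the ahl10-1 controls than in the wild-type controls, and was not absent. Its level, given here and below on the TMM-scaled counts-per-million scale (CPM), averaged 22.8 ± 2.3 (SD, n = 3) in the ahl10-1 controls against 45.9 in the wild-type controls. The ahl10-1 libraries stood at 25.4, 22.1 and 20.9 CPM at control and at 32.6, 27.7 and 28.7 CPM at low water potential, so the groups did not overlap, and the remaining transcript rose with the treatment (log2 change 0.38 ± 0.076 (SE), edgeR adjusted p = 0.00138). This rise was not shown to differ from that in the wild type (difference -0.08, 95% interval -0.31 to 0.15). Where the insertion lies relative to these reads was not examined, so the values do not show how much functional protein the line makes. RRP6L1 did not pass the test (log2 change 0.14, adjusted p = 0.541).

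The libraries held 60606503 to 66420959 reads each, and 3 reads correspond to 0.0452 to 0.0495 CPM. Treatment separated the 6 libraries on the first principal component, which took 61.5% of the variance. On the second component (13.0%) control replicate 1 stood apart at -42.7, against 22.2 and 18.6 for the other controls, while stress replicates 1, 2 and 3 lay at -17.6, 0.82 and 18.6. Control replicate 2 was low for rapid touch and wound genes. Leaf markers were abundant in every library, with a summed level over 7 genes of 12110 to 19540 CPM at control and 10910 to 16400 CPM at low water potential. The 8 root markers summed to 3475 to 3597 CPM at control and 3023 to 4158 CPM at low water potential, overlapping ranges, while the 6 seed and 5 flower markers each summed to at most 3.5 CPM in any library. Both shoot and root were therefore in the RNA, and in such bulk samples fewer cells of a type cannot be told apart from less RNA per cell.

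At 96 h, 6861 of the 22795 genes tested were called at an adjusted p under 0.05, which is 30.1% of them. Of these, 3576 rose (15.7% of the genes tested) and 3285 fell (14.4%). The counts of gene lists given below are to be read beside these shares. The changes were mostly small, with a median log2 change of 0.51 among the genes that rose, -0.59 among those that fell and 0.01 over all genes tested. At least 2-fold changes were found in 817 genes that rose (3.58%) and 906 that fell (3.97%), at least 8-fold changes in 146 and 101, and at least 16-fold changes in 58 and 40. The groups of 3 libraries did not overlap in 93.4% of the called genes, beside 40.1% of all genes tested. The balance of directions depended on the scaling: with plain library sizes 63.0% of the calls were higher, and with limma on log2(RPKM + 0.5) 63.6%, in place of 52.1%.

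The largest rise among genes with a mean of at least 1 log2 CPM was that of LTP4, a lipid transfer protein gene. Its controls stood at 0.368, 0.84 and 0.366 CPM and its stress libraries at 119, 96.4 and 49.0 CPM, a log2 change of 7.38 ± 0.559 (adjusted p = 7.29e-07). Every stress library lay far above every control, with the highest value in replicate 1 and the lowest in replicate 3. HAI2 followed, from 0.53, 0.301 and 0.238 CPM to 19.1, 14.5 and 12.3 CPM (5.39 ± 0.312, adjusted p = 1.58e-08). Another gene of the lipid transfer protein group, AT2G37870, rose by 5.26. SAG29, also named SWEET15, which encodes a sugar transporter of senescing tissue, went from 0.692, 0.713 and 1.02 CPM to 29.4, 30.9 and 22.0 CPM (5.09 ± 0.648). BAM5, a beta-amylase gene, went from 1.02, 0.396 and 0.384 CPM to 13.7, 13.9 and 14.3 CPM (4.52 ± 0.329), the 3 stress libraries being nearly equal. The Nudix hydrolase gene NUDT24 rose by 5.09 and the aldo-keto reductase gene ChlAKR by 4.54, and the remaining 3 of the 10 largest rises were anthocyanin genes described below.

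The largest fall was that of AT3G16670, which RefSeq annotates in the pollen Ole e 1 allergen and extensin family. It stood at 63.9, 80.2 and 116 CPM at control and at 1.23, 2.02 and 3.5 CPM at low water potential (-5.28 ± 0.551, adjusted p = 1.25e-05). CRK30, a cysteine-rich receptor-like kinase gene, fell from 13.0, 24.7 and 30.1 CPM to 0.491, 0.581 and 0.807 CPM (-5.18 ± 0.388). UMAMIT17, a gene of the UMAMIT amino acid transporter family, fell from 31.9, 26.9 and 32.9 CPM to 1.62, 1.54 and 2.04 CPM, the most precise of the 10 largest falls (-4.14 ± 0.187, adjusted p = 2.02e-09). The extensin-like gene AT1G26250 fell by 4.79, the cytochrome P450 gene CYP71B22 by 4.75, the lectin gene AT3G15356 by 3.85 and the leucine-rich repeat kinase gene AT5G59680 by 3.81. In no gene of the 20 did a control library overlap a stress library, which the rule for naming them required.

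**Figure D1:**
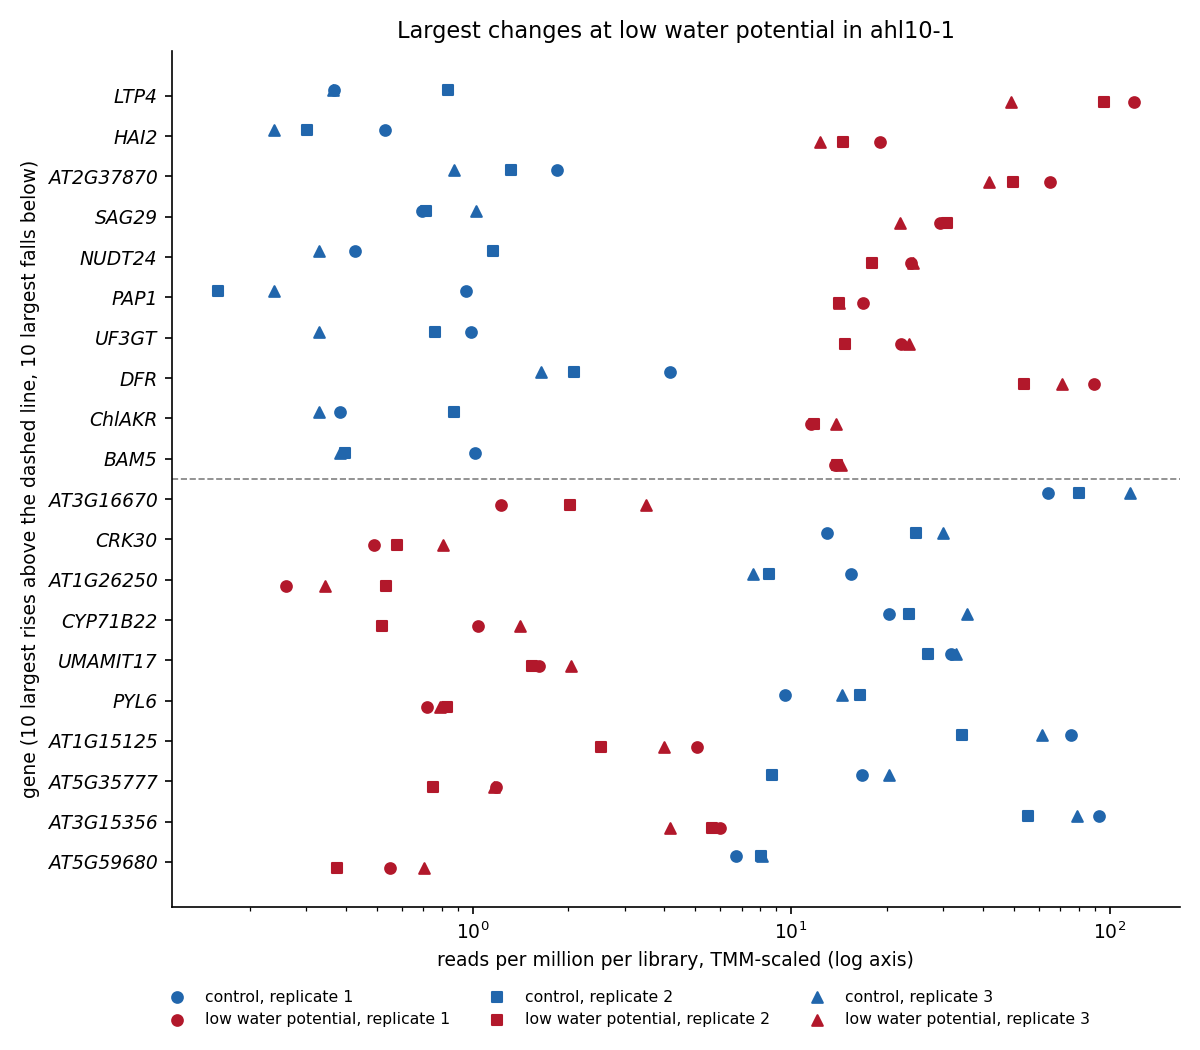
Level of the 10 genes with the largest rises and the 10 with the largest falls, as TMM-scaled CPM on a log axis, in each of the 6 ahl10-1 libraries (blue, control; red, low water potential; marker shape, replicate number). LTP4 lies between 0.366 and 0.84 at control and between 49.0 and 119 at low water potential, and AT3G16670 shows the opposite order.

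In absolute terms the largest gains were in abundant transcripts. BGLU18, a beta-glucosidase gene whose enzyme releases ABA from its glucose ester, went from 424, 172 and 199 CPM to 1953, 1849 and 2157 CPM (log2 change 2.91 ± 0.373, adjusted p = 4.36e-05). LOX2, the chloroplast lipoxygenase of jasmonate synthesis, went from 140, 178 and 154 CPM to 1308, 1269 and 1631 CPM (3.16 ± 0.307, adjusted p = 2.94e-06). Both genes were far higher in every stress library than in any control. Among the losses, the lipid transfer family gene AT2G45180 fell from 1067, 1234 and 1762 CPM to 191, 174 and 211 CPM (-2.82 ± 0.161, adjusted p = 1.22e-08).

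At the receptor end of ABA signalling transcripts were lower, and at the phosphatase end they were higher. Of 11 tested PYR/PYL receptor genes 8 fell and 0 rose, with a median log2 change of -0.91. PYL6 fell from 9.55, 16.4 and 14.5 CPM to 0.722, 0.832 and 0.79 CPM (-4.11 ± 0.344, adjusted p = 6.67e-07). PYL5 fell from 50.0, 36.4 and 56.9 CPM to 7.8, 6.73 and 8.41 CPM (-2.64 ± 0.207), and PYL4 from 111, 130 and 148 CPM to 21.0, 24.6 and 30.8 CPM (-2.35 ± 0.178). In these 3 genes every control lay well above every stress library. PYL8, a receptor known for its part in root growth under ABA, fell by 1.31, PYR1 by 1.00, PYL1 by 0.91, PYL2 by 0.60 and PYL9 by 0.28. PYL7 (-0.12, adjusted p = 0.576) and the scarcely expressed PYL3 and PYL12 did not pass the test.

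Of the 9 clade A PP2C genes 7 rose and 0 fell, with a median log2 change of 1.15. HAI1 went from 6.12, 4.47 and 4.26 CPM to 62.1, 36.4 and 30.0 CPM (3.11 ± 0.286, adjusted p = 2.33e-06), and HAI2, given above, changed more. ABI2 rose by 1.34, PP2CA by 1.15, ABI1 by 0.86, HAB1 by 0.63 and HAB2 by 0.39. HAI3 stood at 0.53, 0.127 and 0.256 CPM at control and at 1.1, 1.1 and 0.154 CPM at low water potential, and it did not pass the test (adjusted p = 0.123), nor did AHG1, which is expressed mainly in seeds (adjusted p = 0.402). Of the 10 SnRK2 kinase genes 3 rose and 2 fell, with a median of 0.14. SNRK2.7 rose by 1.05, OST1, the kinase of guard cells, by 0.41 and SNRK2.2 by 0.24, while SNRK2.8 fell by 0.84. Without stress replicate 1, or with the 6 ahl10-1 libraries alone in the fit, 2 rose and 1 fell. Of 6 tested ABA transcription factor genes 5 rose, among them ABI5 (1.69 ± 0.188), ABF2 (0.84), ABF3 (0.61) and ABF4 (0.33), and 0 fell.

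**Figure D2:**
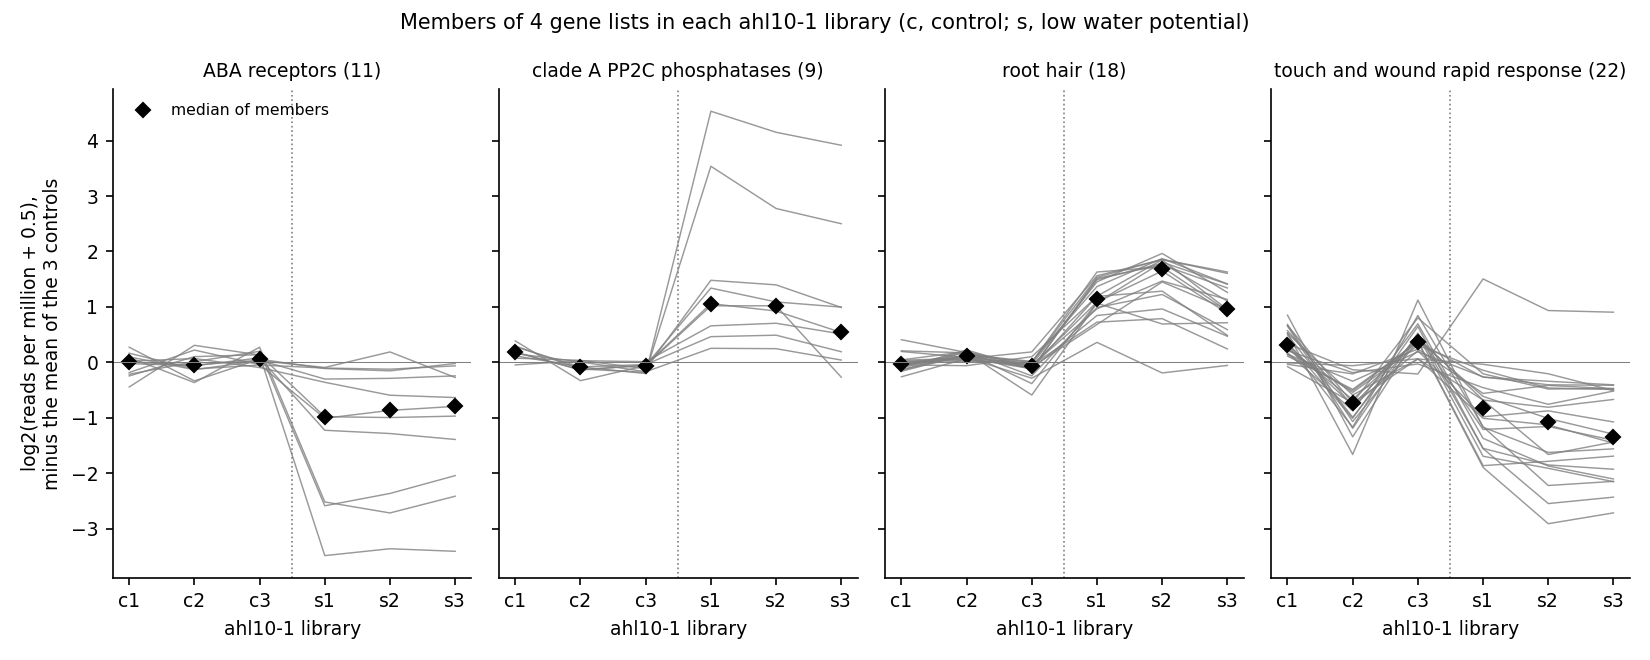
Each line is 1 gene of the named list, drawn across the 6 ahl10-1 libraries (c1 to c3, control; s1 to s3, low water potential) as log2(CPM + 0.5) minus the mean of its 3 controls, and diamonds are the median of the members. At low water potential the medians of ABA receptors lie below the controls and those of PP2C and root hair genes above them. Single members depart from this, such as the PP2C gene HAI3 in s3. Among touch and wound genes control 2 lies between the other controls and the stress libraries.

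Genes of ABA synthesis and turnover rose in 8 of 15 cases and fell in 0, with a median of 0.31. NCED3, which encodes the rate-limiting dioxygenase of ABA synthesis under water deficit, stood at 2.33, 1.63 and 2.6 CPM at control and at 10.5, 9.15 and 6.3 CPM at low water potential (1.99 ± 0.423, adjusted p = 0.00265). The groups did not overlap, and at these low levels the related gene NCED9 rose by 2.23. AAO3, the aldehyde oxidase of the last step, rose by 0.31. CYP707A1 and CYP707A4, whose enzymes break ABA down, rose by 1.12 and 0.88. Their relative CYP707A3 did not pass the test (-1.24, adjusted p = 0.299), though it did as a fall with the 6 ahl10-1 libraries alone in the fit (adjusted p = 0.0478), nor did BGLU33, a further gene of release from the glucose ester (0.13, adjusted p = 0.588). NCED5 was called at an adjusted p of 0.0497, but lost the call in 5 of the 6 fits with 1 library of ahl10-1 left out, at adjusted p-values of 0.0727 (without control replicate 2) to 0.176 (without control replicate 1). ABA3, another of the 8 (0.22, adjusted p = 0.0339), also lost its call in 5 of the 6. Its adjusted p-values there were 0.0602 (without control replicate 1) to 0.172 (without stress replicate 1).

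Of 32 genes known to be induced by ABA or dehydration 25 rose and 1 fell, with a median log2 change of 1.57. The dehydrin gene RAB18 went from 12.2, 6.2 and 10.1 CPM to 150, 90.1 and 40.8 CPM (3.30 ± 0.463, adjusted p = 0.000147). RD29B, whose promoter is shown above, went from 5.99, 1.97 and 4.31 CPM to 57.5, 32.2 and 19.1 CPM (3.15 ± 0.528, adjusted p = 0.00059). In both genes stress replicate 1 was the highest and stress replicate 3 the lowest, and the same order held for the protective protein genes LEA7 (49.0, 24.9 and 10.4 CPM) and KIN1 (44.8, 24.4 and 7.93 CPM). RD20, which encodes a calcium-binding caleosin, was even between libraries, at 4.98, 3.6 and 4.15 CPM against 38.1, 43.2 and 42.8 CPM (3.28 ± 0.174, adjusted p = 8.66e-09). COR15A, a chloroplast protective protein gene, rose by 3.93, the membrane protein gene TSPO by 3.13, the linker histone gene HIS1-3 by 2.81, the homeobox gene HB7 by 2.30 and RD29A by 2.26. The fall was that of NAC055, a NAC factor gene (-2.06, adjusted p = 0.0368), and it lost its call in 5 of the 6 fits with 1 library left out, with a log2 change of -1.27 and adjusted p of 0.19 without control replicate 1. DREB2A (0.56, adjusted p = 0.126), RD26 (0.63, adjusted p = 0.278) and NAC019 (1.68, adjusted p = 0.0512), all transcription factor genes of the early dehydration response, did not pass the test.

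The motif counts follow these groups. The ABRE core was found in 21.6% of all 32834 windows and in 24.1% of those of the genes tested. It was in 30.9% of the windows of genes that rose and in 21.2% of those that fell. Among genes that rose at least 2-fold the share was 40.1%, at least 4-fold 43.9% and at least 8-fold 46.2% (67 of 145 windows), whereas among genes that fell at least 2-fold it was 24.0%, at least 4-fold 23.5% and at least 8-fold 17.8% (18 of 101 windows). The G-box, which overlaps the ABRE core, was in 5.83% of all windows and in 20.7% of those of genes that rose at least 8-fold. The DRE core was in 12.2% of all windows and 19.3% of the latter. Of the 32 ABA and dehydration genes 21 had an ABRE core in this window, as did 6 of the 9 PP2C genes and 3 of the 11 receptor genes. Photosynthesis genes, of which 0 rose, held it in 13 of 38 windows. These are matches of letters in a short window and show no binding.

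**Figure D3:**
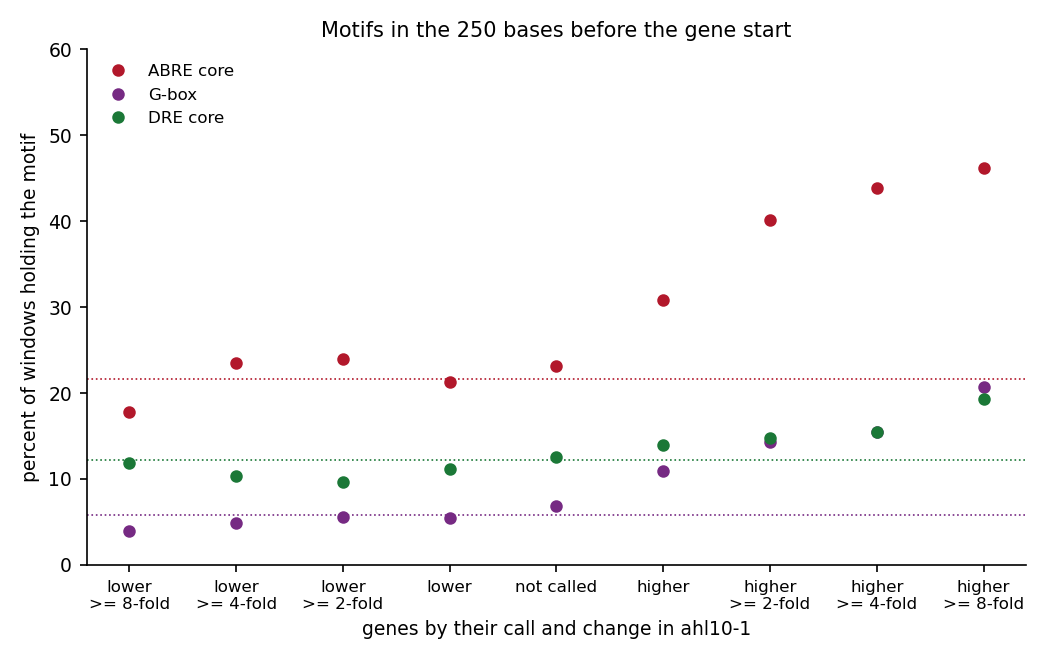
Share of promoter windows, in percent, that hold at least 1 copy of the ABRE core, the G-box or the DRE core on either strand, for genes grouped by call and size of change in ahl10-1, with dotted lines at the share of all windows. The ABRE core share is 17.8% among genes that fell at least 8-fold and 46.2% among those that rose at least 8-fold.

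Proline genes changed in both directions. P5CS1, the gene of the rate-limiting synthetic enzyme, went from 90.7, 65.9 and 68.4 CPM to 827, 854 and 882 CPM, with little spread at low water potential (3.51 ± 0.143, adjusted p = 9.18e-10). ERD5, which encodes proline dehydrogenase 1, the first enzyme of breakdown, fell from 136, 129 and 216 CPM to 42.4, 37.6 and 44.4 CPM (-1.95 ± 0.224, adjusted p = 1.62e-05). Its paralogue for proline dehydrogenase 2, AT5G38710, fell by 1.43. P5CDH, the next enzyme of breakdown, instead rose, from 76.2, 77.7 and 73.5 CPM to 134, 132 and 130 CPM (0.80 ± 0.0594). The reductase gene P5CR rose by 0.42 and DELTA-OAT, the gene of ornithine aminotransferase, by 0.61. Over the list of 12 genes 5 rose and 3 fell.

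For raffinose sugars, GOLS2, whose galactinol synthase makes the galactosyl donor, went from 7.83, 5.72 and 4.31 CPM to 48.0, 59.3 and 45.6 CPM (3.09 ± 0.277, adjusted p = 1.82e-06). GOLS4 rose by 1.59, GOLS1 by 0.66 and the raffinose synthase gene RS5 by 0.56, while STS, a stachyose and raffinose synthase gene, fell by 1.74, so that 4 of 6 genes rose and 1 fell. Sugar transporters were split, with 4 of 16 higher and 9 lower. SWEET4 (3.55) and SWEET13 (1.47) rose beside SAG29, and SWEET11 (-0.89) and SUC2 (-0.61), which load sucrose into the phloem, fell with SWEET2 (-1.48), the hexose carrier gene STP1 (-1.40) and the sugar carrier gene ERD6 (-1.63). In the carbon starvation list, which also holds trehalose phosphate synthase-like genes, 6 of 9 genes fell and 1 rose. DIN10, a raffinose synthase-like gene, fell from 547, 284 and 574 CPM to 58.3, 34.6 and 54.5 CPM (-3.25 ± 0.285, adjusted p = 1.37e-06). SEN1, a gene of dark-induced senescence, fell from 109, 13.2 and 79.7 CPM to 7.0, 5.71 and 7.52 CPM (-3.32 ± 0.667, adjusted p = 0.00225), with control replicate 2 well below the other controls. With the replicate number as a block in a fit of the 6 ahl10-1 libraries SEN1 was not called (-2.94, adjusted p = 0.108). The regulatory subunit gene AKINBETA1 fell by 1.24 and the trehalose phosphate synthase-like genes TPS9 and TPS11 by 1.11 and 1.27, whereas TPS5 rose by 0.66. ASN1, an asparagine synthetase gene, stood at 222, 22.0 and 51.1 CPM at control and was not called (adjusted p = 0.212).

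Lipid transfer protein genes rose in 5 of 9 cases and fell in 1. Beside LTP4, LTP3 went from 8.26, 4.63 and 4.99 CPM to 104, 86.5 and 34.9 CPM (3.65 ± 0.349, adjusted p = 4.35e-06) and LTP2 rose by 1.81, whereas LTP5 fell by 1.33. Among wax genes 3 of 17 rose (17.6%) and 9 fell (52.9%), beside 15.7% and 14.4% of all genes tested. CER1, an enzyme of alkane formation, went from 23.0, 25.6 and 25.5 CPM to 79.3, 92.2 and 98.9 CPM (1.87 ± 0.138, adjusted p = 1.52e-07). CUT1 and KCS9, which elongate fatty acids, fell by 0.87 and 0.76. The share of wax genes that rose was thus near that of all genes tested.

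Late anthocyanin genes rose together. Of 12 flavonoid and anthocyanin enzyme genes 8 rose and 0 fell, with a median log2 change of 2.46. DFR, dihydroflavonol reductase, went from 4.18, 2.08 and 1.65 CPM to 89.1, 53.7 and 70.9 CPM (4.74 ± 0.557, adjusted p = 3.44e-05). UF3GT, a glycosyltransferase of anthocyanins, went from 0.986, 0.761 and 0.329 CPM to 22.2, 14.7 and 23.4 CPM (4.83 ± 0.519, adjusted p = 1.2e-05). LDOX, the leucoanthocyanidin dioxygenase, rose by 4.20, the acyltransferase gene AT5MAT by 4.28, the glutathione transferase gene GSTF12 by 4.28 and the glucosyltransferase gene AT4G14090 by 4.01. The early enzyme F3H rose by only 0.91, and TT4, chalcone synthase, stood at 167, 323 and 300 CPM against 350, 315 and 376 CPM and was not called (adjusted p = 0.267). PAP1, the MYB activator of these genes, went from 0.957, 0.159 and 0.238 CPM to 16.8, 14.2 and 14.2 CPM (5.01 ± 0.558, adjusted p = 1.42e-05). Its partner TT8 rose by 3.56 and PAP2 by 2.26, while LBD37, LBD38 and LBD39, which repress anthocyanin formation and respond to nitrate, fell by 0.69, 0.68 and 1.29.

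Cell wall genes were divided by function. In the secondary wall list 17 of 24 rose and 1 fell, with a median of 0.51. CESA8, a cellulose synthase of the secondary wall, went from 29.3, 25.9 and 26.5 CPM to 49.0, 45.2 and 42.7 CPM (0.74 ± 0.0696, adjusted p = 1.27e-06), close to the changes of CESA4 (0.77) and CESA7 (0.72). The xylan gene IRX9 rose by 0.88 and MYB46, a switch of secondary wall formation, by 0.71, and the fall was that of FLA12, a fasciclin-like arabinogalactan protein gene (-0.71). Of 10 primary wall cellulose genes 0 rose and 3 fell, or 6 with the replicate number as a block. Of 27 xyloglucan endotransglucosylase genes 12 fell and 4 rose, with a median of -0.68. XTH4 fell from 386, 302 and 400 CPM to 145, 136 and 133 CPM (-1.40 ± 0.103, adjusted p = 1.38e-07) and XTH6 by 2.05, whereas XTH14 rose by 1.99 and XTH19 by 1.14. Expansins, proteins that loosen walls, rose in 12 of 21 cases and fell in 0, among them EXPA15 (0.73), EXPA9 (0.72) and the root hair expansins EXPA7 (1.83) and EXPA18 (1.85).

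Root hair genes rose in 14 of 18 cases and fell in 0, with a median log2 change of 1.43. COW1, a phosphatidylinositol transfer protein gene of hair growth, went from 5.45, 6.96 and 5.81 CPM to 12.3, 17.6 and 13.9 CPM (1.26 ± 0.226, adjusted p = 0.000614). The wall gene LRX1 went from 2.61, 2.88 and 2.61 CPM to 8.26, 12 and 7.18 CPM (1.76 ± 0.445, adjusted p = 0.00808), and the root hair specific genes RHS12 and RHS15 rose by 1.82 and 2.28. The summed level of the 18 genes was 52.3 to 61.7 CPM at control and 118 to 173 CPM at low water potential, highest in stress replicate 2. The summed level of the root markers was 3475, 3597 and 3544 CPM at control and 3790, 4158 and 3023 CPM at low water potential, so it had the same order across the stress libraries as the root hair genes, with stress replicates 1 and 2 above every control. Of the 8 root markers 1 rose and 1 fell, or 4 rose and 0 fell with the replicate number as a block in a fit of the 6 ahl10-1 libraries, and their part in the result was not tested. The count of root hair genes fell to 9 without stress replicate 2, to 3 without both libraries numbered 1 and to 7 without both numbered 3. It was 4 higher and 0 lower in the wild type, where 12.6% of all genes rose and 13.4% fell, and the same in rrp6l1-2 (14.9% and 14.7%), but no member's response was shown to differ between ahl10-1 and the wild type, the smallest unadjusted p of the interaction being 0.131. RHD2, an NADPH oxidase gene of hair tips (0.63, adjusted p = 0.0647), COBL9 (0.84, adjusted p = 0.0798, or 0.00434 in that blocked fit), RHS18 (adjusted p = 0.0738) and RSL1 (0.07) were not called.

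Of the 24 aquaporin genes 7 fell (29.2%) and 4 rose (16.7%), beside 14.4% and 15.7% of all genes tested. TIP2;1, a tonoplast water channel, fell from 895, 718 and 1105 CPM to 280, 276 and 331 CPM (-1.61 ± 0.134, adjusted p = 3.63e-07), and the plasma membrane channel gene PIP1;5 fell by 1.22, while PIP2;5 rose by 1.09 and the boric acid channel gene NIP5;1 by 0.78. Of 14 genes of stomata and guard cells 2 rose (14.3%) and 4 fell (28.6%). The potassium channel gene KAT1 fell by 1.07 and the MYB factor gene MYB60 by 0.89, while GORK, the channel gene of potassium efflux, rose by 0.46. Of the 38 photosynthesis genes 0 rose and 5 fell (13.2%), a share near the 14.4% of all genes tested. The number that fell depended on the fit. It was 17 with the replicate number as a block in a fit of the 6 ahl10-1 libraries, 8 in DESeq2, and 1 with these libraries alone and no block. It was 13 without control replicate 1, 3 without control replicate 2, 0 without control replicate 3, 0 without stress replicate 1, 1 without stress replicate 2 and 8 without stress replicate 3. Their summed level was 94850 to 147100 CPM at control and 84440 to 116700 CPM at low water potential, overlapping ranges.

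Jasmonate genes rose in 13 of 28 cases and fell in 1. VSP2, a vegetative storage protein gene used as a jasmonate marker, went from 85.9, 78.3 and 71.8 CPM to 719, 738 and 777 CPM (3.24 ± 0.184, adjusted p = 1.22e-08). VSP1 rose by 2.54, and the allene oxide cyclase genes AOC2 and AOC1, which act after LOX2, by 1.80 and 1.30. CYP94B3, which inactivates the active hormone form, rose by 1.62. In the salicylate and defence list 2 of 21 rose and 6 fell. PR2, a glucanase gene, rose by 3.45 and WRKY54 fell by 1.80. The number that fell was 3 without control replicate 1, without control replicate 3 or without stress replicate 1.

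Called genes of the growth hormone pathways were mostly lower. In the auxin list 12 of 33 fell and 2 rose, with a median of -0.25. The Aux/IAA repressor genes IAA6, IAA19 and IAA3 fell by 2.31, 1.30 and 1.01 and the influx carrier gene LAX1 by 0.72, while the response factor gene ARF5 rose by 0.53. Of the 16 brassinosteroid genes 8 fell and 0 rose, among them the target gene BEE1 (-1.58) and the synthesis gene BR6OX1 (-1.41), and 5 fell without control replicate 3. Of the 22 ethylene genes 8 fell and 0 rose, with ACS11 and ACS4, which make the ethylene precursor, at -3.79 and -2.33. GASA1 fell from 180, 300 and 264 CPM to 93.3, 62.9 and 54.0 CPM (-1.82 ± 0.25), whereas GASA4, another gibberellin-regulated peptide gene, rose from 196, 157 and 147 CPM to 462, 510 and 475 CPM (1.53 ± 0.119). The cytokinin synthesis gene IPT3 fell by 1.23 and the response regulator gene ARR15 by 1.08.

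Nutrient genes moved in opposite directions. Phosphate starvation genes rose in 8 of 15 cases and fell in 2, with the acid phosphatase gene PAP17 going from 17.2, 18.4 and 16.6 CPM to 82.9, 72.2 and 64.1 CPM (2.07 ± 0.206, adjusted p = 4.23e-06) and the transporter gene PHT1;4 rising by 1.35. Of the 12 nitrate genes 6 fell and 1 rose. NIA2, a nitrate reductase gene, fell from 872, 1042 and 1389 CPM to 533, 540 and 600.5 CPM (-0.98 ± 0.162, adjusted p = 0.000276), NIA1 by 1.04, the nitrite reductase gene NIR1 by 0.66 and the transporter gene NRT2.5 by 1.96. NRT1.8, which unloads nitrate from the xylem, was the one that rose (1.49). Flowering regulators fell in 8 of 22 cases and rose in 2. FT, the mobile flowering signal, fell from 3.78, 4.39 and 4.3 CPM to 1.27, 1.68 and 1.82 CPM (-1.39 ± 0.238, adjusted p = 0.000382), its relative TSF by 2.04 and its activator CO by 1.36. Without stress replicate 2 the flowering counts were 5 lower and 1 higher.

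**Figure D4:**
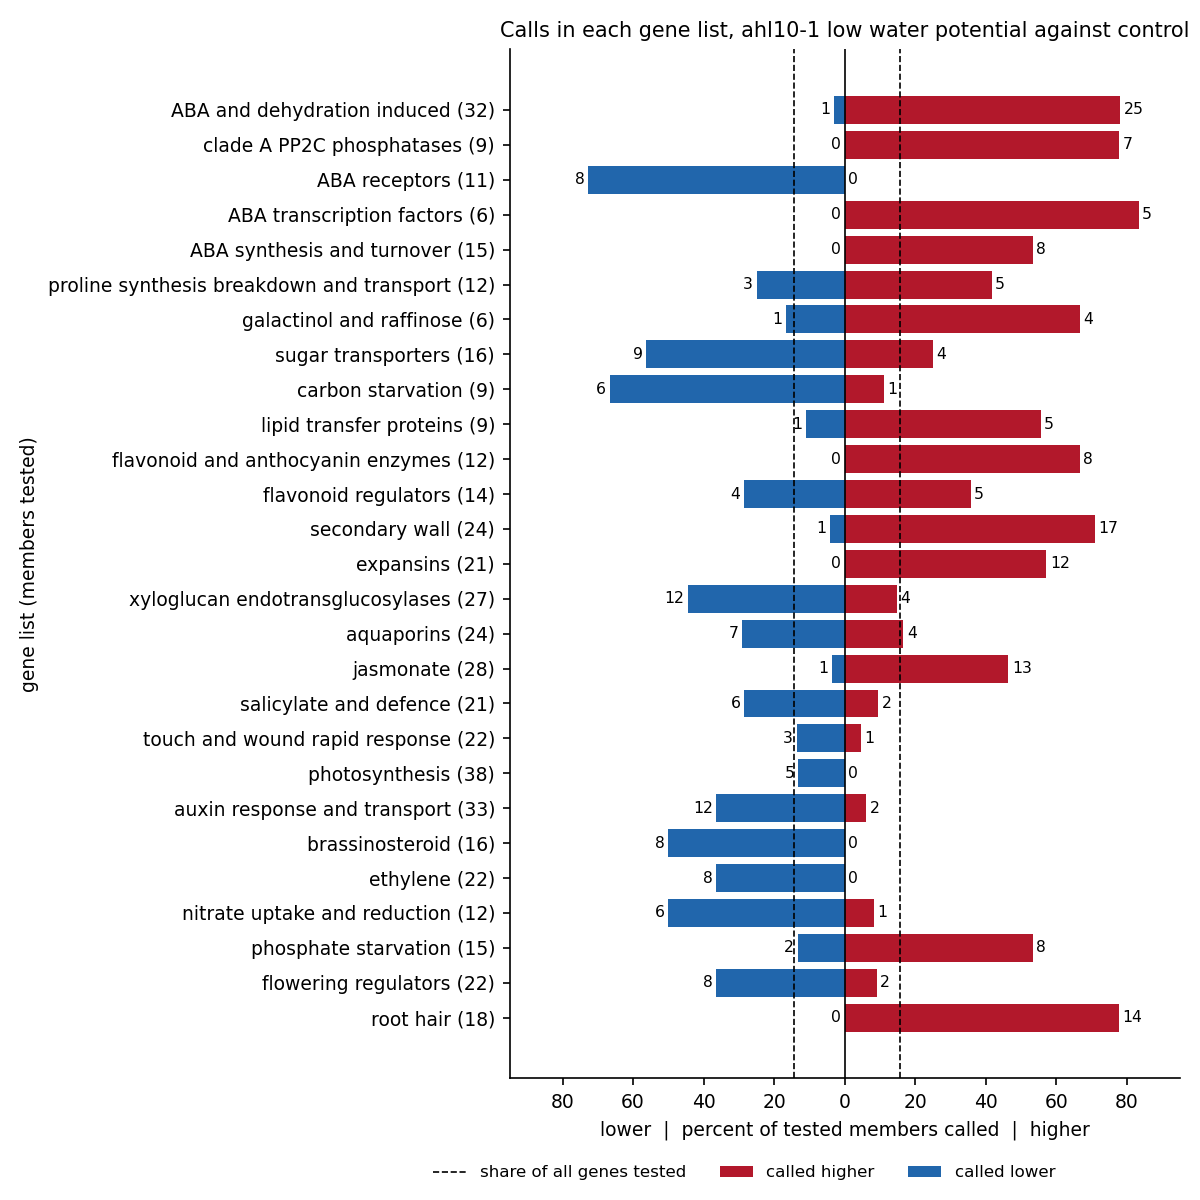
Percent of the tested members of each gene list called higher (red, right) or lower (blue, left) at low water potential in ahl10-1, with the number of calls at the end of each bar and the number tested in brackets. Dashed lines mark the shares of all genes tested, 15.7% higher and 14.4% lower. Bars of the ABA receptors reach left and those of the PP2C, ABA and dehydration, secondary wall and root hair lists reach right.

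For rapid touch and wound genes the control libraries differed among themselves. ZAT10, a zinc finger repressor gene, stood at 33.6, 12.7 and 41.1 CPM at control and at 8.55, 4.05 and 4.43 CPM at low water potential, and although the groups did not overlap it was not called (-2.35 ± 0.865, adjusted p = 0.0565). TCH3, a calmodulin-like gene, stood at 194, 57.2 and 157 CPM against 32.8, 34.7 and 37.0 CPM. Control replicate 2 was the lowest control in both, and the summed level of the 22 genes was 362 CPM there against 790.4 and 797 CPM in the other controls and 243 to 281 CPM at low water potential. Of the 22 genes 3 fell (TCH2, TCH3 and CAF1A) and 1 rose (CBF3, 1.72 ± 0.394, adjusted p = 0.00361), with a median of -1.43, and with the replicate number as a block 7 fell. In a fit of the 6 ahl10-1 libraries alone 13 of 21 fell, and 8 of 21 when that fit held the block, in which TCH3 was not called (adjusted p = 0.083). DESeq2 called 8 of 22 lower. The number that fell was 5 without control replicate 2, 1 without control replicate 3 or without stress replicate 2, and 0 without stress replicate 3. In the wild type 19 of the 22 fell, with a median of -2.49. No member's response was shown to differ between the genotypes, the smallest unadjusted p of the interaction being 0.0275.

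The question of how far the ahl10-1 response matched that of the wild type was addressed by the calls and by a direct test of the difference. The wild type had 5941 calls (26.1%) and rrp6l1-2 had 6733 (29.5%), from libraries not shared with ahl10-1. In ahl10-1 and the wild type 4865 genes were called in the same direction, which is 70.9% of the ahl10-1 calls and 81.9% of the wild-type calls, and 0 genes were called in opposite directions. With rrp6l1-2 the number was 4936, or 71.9% of the ahl10-1 calls and 73.3% of the rrp6l1-2 calls, again with 0 opposite. Across all 22795 genes, which are not independent replicates, the log2 changes of ahl10-1 correlated with those of the wild type at r = 0.834 and with those of rrp6l1-2 at r = 0.832. Of the 1996 genes called in ahl10-1 but not in the wild type, 1959 changed with the same sign there and 1001 had an unadjusted p under 0.05 there. In the genes called in both, the change was larger in ahl10-1 in 62.3% of them, with median sizes of 0.62 in ahl10-1 and 0.58 in the wild type.

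**Figure D5:**
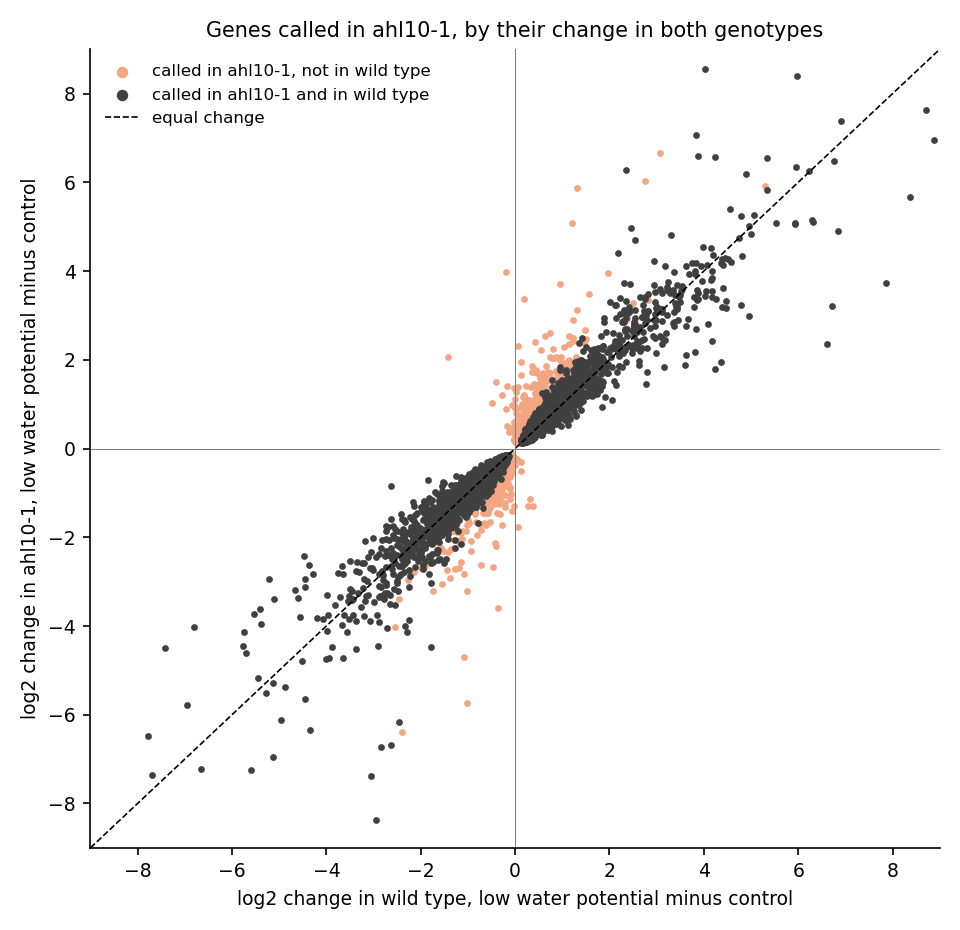
Log2 change at low water potential in the wild type (x) and in ahl10-1 (y) for the genes called in ahl10-1, dark where also called in the wild type and orange where not, with a dashed line of equal change. The axes end at 9 and leave out 2 genes. Dark points lie at the lower left and the upper right, with 0 genes called in opposite directions.

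The test of the difference found 0 genes (0%) whose response differed between ahl10-1 and the wild type in edgeR, with the smallest adjusted p at 1. At an unadjusted p under 0.05 there were 316 genes (1.39%). Against rrp6l1-2 the count was also 0 (0%), with 605 genes (2.65%) at an unadjusted p under 0.05. Both shares are smaller than the fraction of 0.05 that would pass with no difference in any gene. These genes are therefore no sign of differences, and the test was cautious here, for a reason that was not tested. DESeq2 called 3 and 2 genes, all loci with 0 reads in every library of at least 1 group. The median standard error of the difference from the wild type was 0.17 on the log2 scale, and differences well above this size also missed the adjusted threshold. The 95% interval of the difference ran from -0.56 to 0.49 for PYL4 and from -0.17 to 0.63 for P5CS1. Their standard errors, 0.24 and 0.18, were above that median. For HAI2 the rise was 5.39 in ahl10-1 and 4.56 in the wild type, with an interval of the difference from -0.08 to 1.75 (unadjusted p = 0.0647). NCED3 rose by 1.99 in ahl10-1, and its change in the wild type, 0.95, was not called, with an interval of the difference from -0.22 to 2.29. GOLS1 had the smallest unadjusted p among the genes named above, at 0.00103, with a change of 0.66 in ahl10-1 and 0.12 in the wild type and an adjusted p of 1.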

How the data were processed

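Per the labels' protocols, poly(A) RNA of whole seedlings was made into stranded libraries. For each of the 18 libraries the authors deposited, per the file headers, expected counts of reads per gene, RPKM (a read number corrected for the length of the gene and the size of the library), the fraction of multi-mapped reads of each gene, and gene lengths. Counts were not whole in 3.98% to 4.35% of the genes of the ahl10-1 libraries, so reads with several positions had been shared out. The submitters' processing notes name Bowtie2, DESeq2, CASAVA, bcl2fastq 1.8.4 and the build TAIR10. Which tool counted the reads, and with which strand setting, is not given in the sources used here. Reads of overlapping or antisense genes, and of near-identical copies, are therefore uncertain. The authors' deposited comparison tables were not used. The files carry no coordinates, and those printed, like names and promoter windows, are RefSeq's for TAIR10.1, in which 32835 of 33602 loci have a locus tag.

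Rounded counts entered the quasi-likelihood test of edgeR 4.0.16 under R 4.3.3 (robust, TMM factors of 0.901 to 1.07), in 1 fit of all 18 libraries with 6 group means and 12 residual degrees of freedom. The low-count filter by group kept 22795 genes, the Benjamini-Hochberg adjustment of p-values ran over all of them, and calls needed an adjusted p under 0.05. Adjusted p-values of single genes are from this test. Levels are TMM-scaled counts-per-million values (CPM). Counts of 22795 genes were simulated from each gene's mean and fitted dispersion, with no effect of the replicate number. Changes were set only in genes with a mean over 1 log2 CPM. Of these, 94.6% of 112 changed 2-fold and 100% of 88 changed 4-fold were recovered, with 8 false calls (3.96% of the calls). All other genes were left unchanged, whereas in the data 30.1% of the genes were called, mostly with changes under 2-fold. The simulation does not give the recovery of genes at lower levels, with smaller changes or with effects shared by replicate number. Nor does it give the share of false calls where many genes change, and it did not cover the tests of differences between genotypes. Standard errors were worked back from the size of each change and its quasi-likelihood F statistic. Intervals of differences are this error times the 95% point for 12 degrees of freedom. The test also borrows degrees of freedom across genes, so an interval and its p-value can disagree near the threshold. Floors and intervals cover counting or replicate error, as PCR duplicates are not separate molecules. Replicate pairs of ahl10-1 differed by a chi-square of 22.8 to 109 per gene, with no identical pair, and each library counts as 1 replicate.

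The numbers of the ahl10-1 libraries pair them: their deviations from group means correlated, over 18641 genes, at 0.239, 0.205 and 0.327 between same-numbered control and stress libraries. The labels do not say what a number marks.

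The members, the 50 gene lists (840 loci, from general knowledge) and the rule for naming genes were chosen with earlier results of these data known, so a list's count is no independent evidence. The rule took AHL10 and RRP6L1. It took the 10 largest rises and falls with a mean of at least 1 log2 CPM and no overlap of the groups. It also took the 6 largest gains and losses in CPM. The 4 genes with 0 reads at 1 treatment and the highest level at the other were added. Every tested member of the ABA receptor, PP2C, SnRK2, ABA transcription factor, ABA synthesis and proline lists was taken. Up to 5 members of any other list were taken by adjusted p. The plan also held, for each interaction, the 6 largest changes of either sign among called genes. The interactions had 0 calls, and no gene was named on that ground. Other list members named were chosen after their values were seen. Alternatives were other scalings, filters and tools, limma 3.58.1 on log2 RPKM with pseudocounts of 0.5 and 0.1, DESeq2 1.42.0, the replicate block and leaving out libraries.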

Additional observations from a re-analysis of the deposited data

How the results depend on the processing

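The 6861 calls in ahl10-1 numbered 5102 (without control replicate 3) to 6777 (without control replicate 1) with 1 library left out, 4985 with the 6 ahl10-1 libraries alone, 6850 with DESeq2 size factors, 6400 without a low-count filter and 7602 in DESeq2. With the replicate number as a block in the fit of all 18 libraries there were 7616 calls (3976 higher and 3640 lower), and beyond the touch and primary wall counts given above this block moved no count of a list described in the report by over 1.5 times. It changed the call of 7 named genes, 2 that lost it and 5 that gained it. That fit also blocks the wild type, whose same-numbered libraries did not deviate together (correlations of -0.0724, -0.00956 and 0.0154). Same-numbered control and stress libraries of rrp6l1-2, blocked there too, correlated at 0.444, 0.123 and 0.160. With the block in a fit of the 6 ahl10-1 libraries, chosen after seeing the data, there were 6787 calls (3240 higher and 3547 lower), 11 named genes lost their call and 10 gained one. Among described lists that block moved photosynthesis, touch and root markers, as given above, and primary wall cellulose, to 5 lower. LEA7 (adjusted p = 0.105) and NAC055 (0.162) also lost their calls in it. No call turned its direction under any of these alternatives. Leaving out both ahl10-1 libraries numbered 1 or both numbered 3, chosen after seeing the data, gave 5342 and 4589 calls, and 33 and 38 named genes lost theirs. Without the libraries numbered 3, 6 expansins rose and 8 auxin genes fell, and without those numbered 1, 5 ethylene genes fell. The response differences moved from 0 calls to 3 against the wild type and 2 against rrp6l1-2 in DESeq2, at loci with 0 reads in every library of a group (TPS-CIN, ATCG00930, ATCG01170 and AT2G07707). With 1 library left out they ranged from 0 to 0 against the wild type and from 0 to 1 against rrp6l1-2. The 1 call, AT5G39150, appeared without rrp6l1-2 stress replicate 1 (2.96, adjusted p = 0.0299), and most of its reads map to several places. The cause was not tested. Levels under 3 reads, at most 0.0495 CPM, are below what these depths show. Whether depth or the number of libraries limits the test of differences was not tested.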

Other observations

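A few loci had reads at only 1 treatment in ahl10-1. AT5G40790, an uncharacterized protein gene, had 0 reads in the 3 controls and 120, 140 and 105 reads at low water potential, at least 118.1-fold higher when the control group is set to 3 reads in all (edgeR adjusted p = 1.9e-06), and the wild type had 4 reads at control and 344 at low water potential. AT1G50190, annotated with a cysteine and histidine-rich C1 domain, had 60, 29 and 34 reads at control and 0 at low water potential, at least 42.2-fold lower (adjusted p = 4.7e-05). AT4G33720, of the family of pathogenesis-related protein 1, had 12, 42 and 8 reads at control and 0 at low water potential. AT5G50630, AT1G24800, ATCG01170 and TPS-CIN were also at 0 in all libraries of 1 treatment, but their reads are shared with near-identical copies. For AT5G50630 and AT1G24800 all ahl10-1 reads, 624 and 339, were in stress replicate 3, with 0 in stress replicates 1 and 2. In the fit of all 18 libraries edgeR called none of these loci (adjusted p = 0.0839 for ATCG01170 and 0.0947 for TPS-CIN). DESeq2 called ATCG01170 (adjusted p = 5.07e-10) and TPS-CIN (3.34e-12), as did edgeR with the 6 ahl10-1 libraries alone (0.00281 and 0.00286).

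Genes next to each other on a chromosome sometimes changed alike. There were 11 runs of at least 5 neighbouring tested genes called in the same direction. The longest held 6 genes that fell, AT1G02610 to AT1G02660 on chromosome 1 (553019 to 575085), with log2 changes of -4.14 to -1.14. The run on chromosome 4 (8925571 to 8938124) held 5 glutaredoxin-like genes, AT4G15660 to AT4G15700, which fell by log2 changes between -2.83 and -1.33. Where neighbours such as these glutaredoxin-like genes are close copies, their counts are not independent. How alike the genes of each run are was not examined.

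Protein-coding genes were called in 30.7% of 21637 cases, with 3479 higher and 3173 lower, and long non-coding RNAs in 21.2% of 193, with 16 higher and 25 lower. Of 106 chloroplast loci 0 rose and 11 fell (10.4%), a share below the 14.4% of all genes tested, in libraries selected for poly(A) RNA. The chloroplast share of reads varied within groups. It was 0.487%, 0.122% and 0.506% in the ahl10-1 controls and 0.148%, 0.102% and 0.464% at low water potential. HSFA6A, a heat shock factor gene chosen after its values were seen, stood at 0.0294, 0.0634 and 0.0366 CPM at control, within or close to the floor of 3 reads, and at 9.36, 3.73 and 3.66 CPM at low water potential (adjusted p = 8.79e-06).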
